A study of Mus musculus with 14 samples.

Results

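Chemokine receptors are G protein-coupled receptors that guide T cells to and within tissues along gradients of secreted chemokines. The 9 described here (Ccr2, Ccr4, Ccr6, Ccr8, Ccr9, Cxcr3, Cxcr4, Cxcr5 and Cxcr6) were taken by gene name from the 22255 genes in the expression files, and all 9 had a row. They were followed in regulatory T cells (Tregs), CD4 T cells that hold back other immune cells and depend on the transcription factor Foxp3, from 8-week-old mice in 14 libraries. KO tumor Tregs (3 libraries) infiltrated a Yumm1.7 tumor, a transplantable mouse melanoma line, in mice of the strain CD36floxed FoxP3-YFPCre+/- with the genotype CD36 KO. WT tumor Tregs (3 libraries, numbered 2 to 4) infiltrated a Yumm1.7 tumor in FoxP3-YFPCre+/+ mice with the WT genotype. LN Tregs (lymph node, 4 libraries) and spleen Tregs (4 libraries) came from FoxP3-YFPCre+/+ mice with the WT genotype. All cells were sorted as Foxp3-YFP+, so every group carries the Cre transgene, which Foxp3 drives, and the KO and WT mice also differ in the zygosity of that allele. KO tumor against LN or spleen therefore differs in tissue, genotype and zygosity at once, and their parts cannot be told apart. Cd36 encodes a surface receptor through which cells import fatty acids and modified lipoproteins. The labels do not say whether replicates were separate animals, so a p-value here reflects the spread among these libraries alone, which may be technical.

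A chemokine receptor couples mainly to Gi proteins, whose signal reaches integrins and the actin cytoskeleton. RGS proteins, receptor kinases and arrestins then end that signal. CXCR4 binds CXCL12, a chemokine of bone marrow and stroma that holds cells in place. CXCR3 (CXCL9, CXCL10 and CXCL11), CXCR6 (CXCL16) and CCR2 (CCL2 and its relatives) are known for entry into and retention in inflamed tissue, and CCR2 also marks monocytes. CCR4 (CCL17 and CCL22) and CCR8 (CCL1 and CCL8) are known from skin-homing and tumor Tregs. CCR6 (CCL20) and CCR9 (CCL25) are known from mucosal homing, and CXCR5 (CXCL13) leads cells into B cell follicles.

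Values are FPKM (fragments per kilobase of transcript, scaled to the mapped total), which the authors computed, so levels are per length and may be compared between receptors. Estimated depths, each the smallest that turns low values into whole reads, ran from 10.7 to 21.4 M reads per library (M, mega). At those depths 3 reads on the longest transcript of a receptor correspond to 0.0245 to 0.239 FPKM, and over the 14 libraries 7 values of the 9 receptors lay at or under the limit of their own library. Foxp3 was present in every library, at 25.7 to 42.4 FPKM in KO tumor and 3.54 to 12.0 in WT tumor. It stood at 15.4 to 32.3 FPKM in LN and 8.67 to 27.8 in spleen. All WT tumor libraries thus lay under all KO tumor and all LN libraries, though limma called Foxp3 in neither comparison. The part of this in the receptor values was not tested. The T cell gene Cd3e stood at 46.7 to 196 FPKM. Cd36 stood at 0, 1.06 and 0 FPKM in KO tumor 1 to 3, and was listed at 0 in all WT tumor and LN libraries and at 0, 0.598, 4.47 and 2.17 FPKM in spleen 1 to 4, so its loss could not be read from the tumor libraries. The summed level of 8 B cell markers was 283 to 321 FPKM in KO tumor, 363 to 593 in WT tumor, 605 to 715 in LN and 769 to 1379 in spleen. Melanoma markers were near absent (at most 1.84 FPKM summed over 5 genes in any library).

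The sequences below are the stretches before the start sites of Cxcr4 and Cxcr6, which were called higher in tumor Tregs in at least 1 comparison, and of Ccr8, which came closest to the threshold without a call against spleen (0.0530). They are RefSeq promoter sequences of GRCm38.p6 from 250 to 21 bases before the start, read on the strand of the gene, and capitals mark letters that match a motif on either strand. They lie at chr1:128592320-128592549 (minus strand) for Cxcr4, chr9:123806227-123806456 (plus strand) for Cxcr6 and chr9:120091883-120092112 (plus strand) for Ccr8.
Cxcr4: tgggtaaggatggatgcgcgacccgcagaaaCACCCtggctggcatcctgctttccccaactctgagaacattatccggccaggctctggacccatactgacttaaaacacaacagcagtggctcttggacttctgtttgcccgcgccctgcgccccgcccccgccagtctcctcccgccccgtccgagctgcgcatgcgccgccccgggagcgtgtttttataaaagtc
Cxcr6: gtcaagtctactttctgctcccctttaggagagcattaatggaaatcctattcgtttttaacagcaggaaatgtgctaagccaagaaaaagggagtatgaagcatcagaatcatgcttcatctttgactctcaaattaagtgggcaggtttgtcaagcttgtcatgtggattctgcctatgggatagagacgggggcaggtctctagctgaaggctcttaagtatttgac
Ccr8: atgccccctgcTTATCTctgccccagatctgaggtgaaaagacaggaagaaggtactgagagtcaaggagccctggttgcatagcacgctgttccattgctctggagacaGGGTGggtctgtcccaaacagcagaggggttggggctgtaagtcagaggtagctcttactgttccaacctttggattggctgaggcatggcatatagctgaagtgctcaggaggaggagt
The Cxcr4 window held CACCC, the core that Kruppel-like factors bind, at position -219. The Ccr8 window held AGATAA, which GATA factors bind, at -239. It also held CACCC at -140, and both matches were on the other strand. In the Cxcr6 window none of the 7 motifs searched was found. The others searched were ACGTG (hypoxia factors), AGGTCA (ROR receptors), TGANTCA (AP-1), TTCNNNGAA (STAT factors) and TCACAC (T-box factors), each on both strands. CACCC occurred in 49.2% and AGATAA in 9.49% of the 32851 promoter windows of the same length, and a match is only a description of these letters. The Ccr2 window overlaps the annotated gene and is not shown.

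Cxcr4 was the receptor called higher in all 4 comparisons of tumor with lymphoid Tregs. It stood at 14.1, 14.2 and 10.5 FPKM in KO tumor 1 to 3 and at 14.4, 28.2 and 14.4 FPKM in WT tumor 2 to 4. It stood at 0.442, 2.82, 0.0515 and 0.0604 FPKM in LN 1 to 4 and at 0.336, 1.62, 2.13 and 0.193 FPKM in spleen 1 to 4. Every tumor library lay above every lymphoid library, and LN 3 and LN 4 were under the limit of 3 reads. In whole sorted populations, fewer cells with the transcript and less of it per cell cannot be told apart. The gene lies on the minus strand of chromosome 1 (128588199 to 128592293, GRCm38).

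On the log2(FPKM + 1) scale Cxcr4 rose by 2.86 ± 0.63 (SE, limma adjusted p = 0.0227) in KO tumor against spleen, and by 3.33 ± 0.66 (adjusted p = 0.0209) in WT tumor against spleen. It rose by 3.13 ± 0.63 (adjusted p = 0.0122) in KO tumor against LN, and by 3.60 ± 0.66 (adjusted p = 0.00831) in WT tumor against LN. These 4 comparisons share the tumor, spleen and LN libraries, so they are not independent of each other. The call for WT tumor against LN held with each library left out in turn, at adjusted p of 0.00693 to 0.0402. That for WT tumor against spleen was lost without WT tumor 2 (0.0544) or WT tumor 3 (0.0799). For KO tumor against spleen it was lost without KO tumor 1 (0.0861), 2 (0.0795) or 3 (0.0621) or spleen 1 or 4 (0.0543 each), and for KO tumor against LN without KO tumor 1 (0.0534) or 2 (0.0533). Both calls against spleen were also lost with a pseudocount of 0.1 FPKM, where the adjusted p was 0.110 for KO tumor and 0.0969 for WT tumor, and in fits of only the groups compared (0.0542 and 0.0620).

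**Figure D1:**
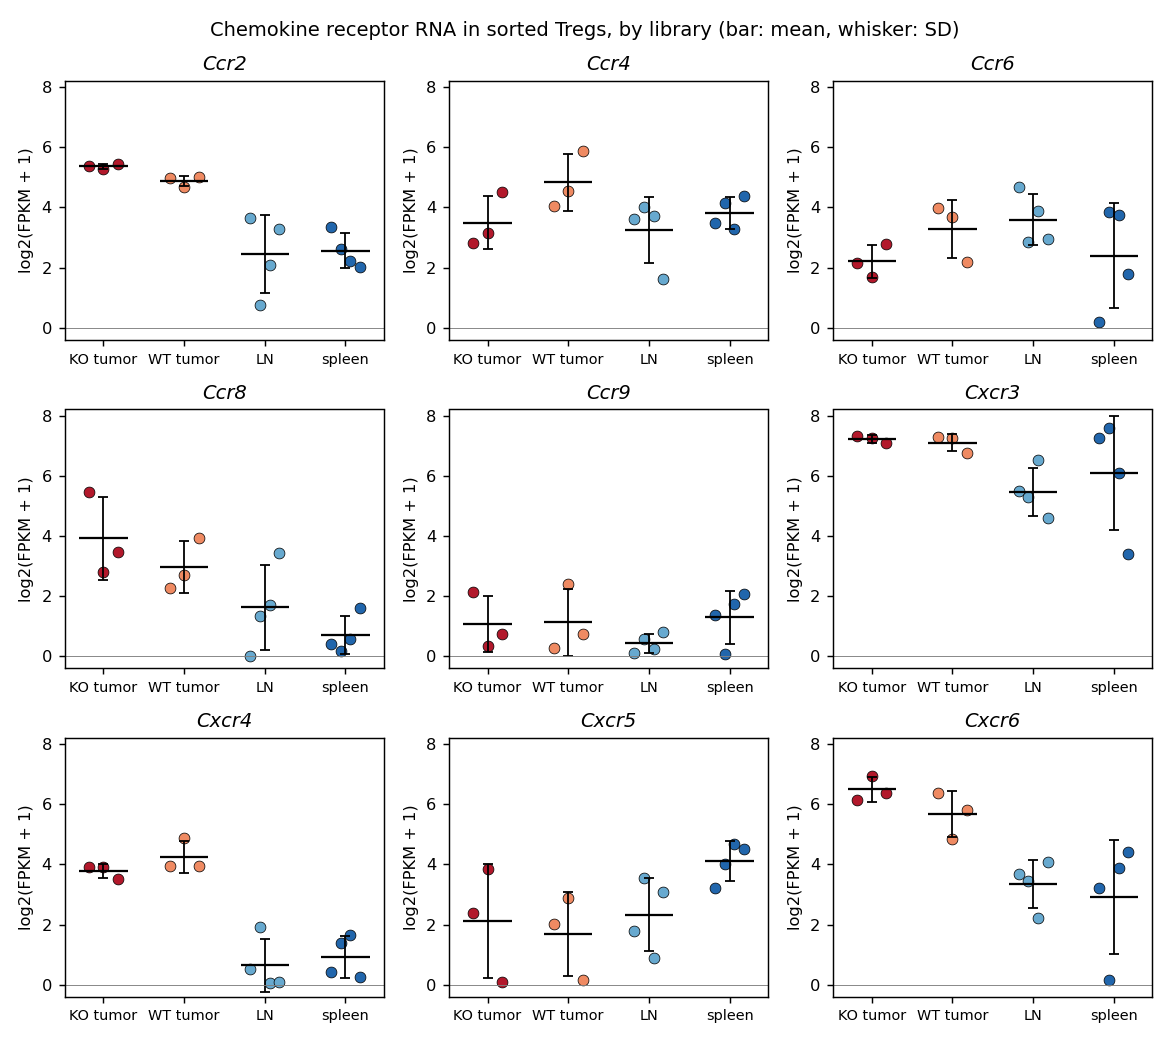
Levels of the 9 receptors on a log2(FPKM + 1) axis, 1 point per library, in KO tumor, WT tumor, LN and spleen Tregs, with a bar at the group mean and whiskers of 1 SD. Ccr2, Cxcr4 and Cxcr6 are the receptors whose 6 tumor points all lie above the 8 lymphoid points, as with Cxcr4 at 10.5 to 28.2 FPKM in tumor and 0.0515 to 2.82 FPKM in lymphoid libraries.

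Ccr2 was also higher in every tumor library than in every lymphoid one, and it passed the test in KO tumor Tregs. It measured 40.9, 38.0 and 42.7 FPKM in KO tumor 1 to 3 and 30.4, 24.5 and 30.9 FPKM in WT tumor 2 to 4. It measured 11.5, 0.709, 3.24 and 8.79 FPKM in LN 1 to 4 and 9.32, 5.17, 3.68 and 3.11 FPKM in spleen 1 to 4. The tumor libraries were close to each other within a genotype, with a coefficient of variation of 5.88% in KO tumor and 12.5% in WT tumor, whereas LN libraries varied by 81.8% and spleen libraries by 52.7%. Ccr2 (plus strand of chromosome 9, 124101950 to 124113557) rose by 2.81 ± 0.66 in KO tumor against spleen (limma adjusted p = 0.0322) and by 2.93 ± 0.66 in KO tumor against LN (adjusted p = 0.0228). In WT tumor the differences were 2.32 ± 0.68 against spleen (adjusted p = 0.119) and 2.43 ± 0.68 against LN (adjusted p = 0.0781), which did not pass.

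Since CCR2 also marks monocytes, the macrophage and monocyte genes stand beside these values. The summed level of 10 such markers was 247 to 265 FPKM in KO tumor and 0.993 to 29.3 FPKM in WT tumor, where Lyz2 reached 19.9 FPKM in WT tumor 2. It was 3.85 to 36.0 FPKM in LN and 226 to 483 FPKM in spleen. Of the defining markers, Adgre1 was at most 0.0179 FPKM in KO tumor and was listed at 0 in all WT tumor libraries, and Csf1r was 1.78 to 5.23 FPKM in KO tumor and at most 0.0763 FPKM in WT tumor. C1qb was 36.1 to 93.0 FPKM in KO tumor and at most 0.685 in WT tumor. For C1qa, C1qc and Apoe the values were 1.90 to 7.30, 3.17 to 29.6 and 1.90 to 52.3 FPKM in KO tumor, against at most 1.29, 0.0775 and 1.72 in WT tumor. Lyz2 and Fcgr1 reached at most 6.21 and 0.114 FPKM in KO tumor, against 19.9 and 0.756 in WT tumor. KO tumor libraries held 91.8 to 177 FPKM of Tyrobp, an adaptor of myeloid receptors, against 0.492 to 6.11 FPKM in WT tumor. In spleen Tyrobp stood at 131 to 216 FPKM, Csf1r at 0.504 to 30.9 and Adgre1 at 0 to 8.55. LN had at most 6.57, 0.526 and 0.0152 FPKM in the same order. The part of such transcripts in the Ccr2 levels was not tested. The calls for KO tumor depended on single libraries. Against spleen the call was lost without KO tumor 1 (0.113), 2 (0.101) or 3 (0.113) or spleen 2 (0.0586), 3 (0.0667) or 4 (0.0690). Against LN it was lost without KO tumor 1 (0.0934), 2 (0.0869) or 3 (0.0877) or LN 3 (0.0661). Without the filter on low values both were lost as well (0.0710 against spleen and 0.0544 against LN), and with a pseudocount of 0.1 FPKM so was the call against spleen (0.0709). In 1 fit of all 14 libraries WT tumor against LN passed (0.0398).

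By group mean, Cxcr6 was the second most abundant receptor in both tumor groups, although Cxcr4 stood above it in WT tumor 3 and Ccr4 in WT tumor 4. Its levels were 70.1, 122 and 82.0 FPKM in KO tumor 1 to 3 and 82.6, 27.8 and 54.5 FPKM in WT tumor 2 to 4. Its levels were 11.8, 9.87, 3.71 and 16.0 FPKM in LN 1 to 4 and 8.36, 0.126, 13.6 and 20.1 FPKM in spleen 1 to 4. All 6 tumor libraries lay above all 8 lymphoid ones, with WT tumor 3 nearest to them, and spleen 2 was at the limit of 3 reads. Cxcr6 (plus strand of chromosome 9, 123806475 to 123811760) rose by 3.57 ± 0.83 in KO tumor against spleen (limma adjusted p = 0.0306). The other differences were 2.76 ± 0.87 in WT tumor against spleen (adjusted p = 0.143), 3.13 ± 0.83 in KO tumor against LN (adjusted p = 0.0564) and 2.31 ± 0.87 in WT tumor against LN (adjusted p = 0.207). The call was lost without KO tumor 1 (0.0882), 2 (0.123) or 3 (0.0952), with a pseudocount of 0.1 FPKM (0.0870), with KO tumor and spleen fitted alone (0.0685) and with no filter on low values (0.102). KO tumor against LN passed in a fit of those groups only (0.00430) and in 1 fit of all 14 libraries (0.0410). Cxcr6 lies within Fyco1 on the opposite strand and shares no exon base with it. Fyco1, whose product moves autophagosomes, averaged 3.20 FPKM in KO tumor, 10.4 in WT tumor, 5.26 in LN and 3.40 in spleen.

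Cxcr3, the receptor for interferon-induced chemokines, was the most abundant of the 9 in every group by mean. It had 158, 153 and 134 FPKM in KO tumor 1 to 3 and 154, 151 and 107 FPKM in WT tumor 2 to 4. It had 44.0, 38.2, 90.5 and 23.0 FPKM in LN 1 to 4, all under every tumor library, and 150, 190, 67.7 and 9.61 FPKM in spleen 1 to 4. The spleen libraries thus spanned the whole range of the others. Cxcr3 (minus strand of chromosome X, 101731535 to 101734269) passed in none of the comparisons. Its differences were 1.75 ± 0.77 in KO tumor against LN (limma adjusted p = 0.313) and 1.62 ± 0.78 in WT tumor against LN (adjusted p = 0.337). Against spleen they were 1.13 ± 0.77 in KO tumor (adjusted p = 0.542) and 1.01 ± 0.78 in WT tumor (adjusted p = 0.609). In a fit of KO tumor and LN only, the adjusted p was 0.0349.

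Ccr8, a receptor of tumor-infiltrating Tregs, had its higher levels in tumor and varied widely within every group. It stood at 43.1, 6.02 and 10.1 FPKM in KO tumor 1 to 3, or about 847, 96.3 and 202 reads, and at 3.81, 5.51 and 14.2 FPKM in WT tumor 2 to 4. It was listed at 0 in LN 1 and stood at 1.51, 2.29 and 9.83 FPKM in LN 2 to 4, and at 0.322, 0.138, 0.493 and 2.08 FPKM in spleen 1 to 4. Every tumor library lay above every spleen library, while LN 4 lay among the tumor values. Ccr8 (plus strand of chromosome 9, 120092114 to 120094906) differed by 3.22 ± 0.84 in KO tumor against spleen, which fell short of a call (limma adjusted p = 0.0530), and by 2.27 ± 0.79 in WT tumor against spleen (adjusted p = 0.188). Against LN the differences were 2.29 ± 0.84 in KO tumor (adjusted p = 0.197) and 1.34 ± 0.79 in WT tumor (adjusted p = 0.447). In 1 fit of all 14 libraries KO tumor against spleen passed (0.0484).

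Ccr4, the other receptor of skin-homing Tregs, did not follow Ccr8. It measured 6.10, 7.93 and 21.8 FPKM in KO tumor 1 to 3 and 15.6, 22.4 and 58.2 FPKM in WT tumor 2 to 4. It measured 11.2, 15.3, 12.1 and 2.08 FPKM in LN 1 to 4 and 10.1, 16.8, 8.79 and 19.7 FPKM in spleen 1 to 4. Every WT tumor library lay just above every LN library, and all other pairs of groups overlapped. Ccr4 (minus strand of chromosome 9, 114490316 to 114504916) differed by 1.59 ± 0.66 in WT tumor against LN (limma adjusted p = 0.256) and by 1.01 ± 0.66 in WT tumor against spleen (adjusted p = 0.534). In KO tumor the differences were 0.25 ± 0.65 against LN (adjusted p = 0.924) and -0.32 ± 0.65 against spleen (adjusted p = 0.873). Over the 14 libraries its Pearson correlation with Ccr8 on the log2(FPKM + 1) scale was -0.04.

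Ccr6, a mucosal homing receptor that B cells also carry, had its highest mean in LN and its lowest in KO tumor. Its levels were 3.41, 2.25 and 5.92 FPKM in KO tumor 1 to 3 and 14.9, 11.7 and 3.56 FPKM in WT tumor 2 to 4. Its levels were 24.7, 6.26, 13.7 and 6.83 FPKM in LN 1 to 4 and 0.149, 13.5, 12.4 and 2.45 FPKM in spleen 1 to 4. All 3 KO tumor libraries lay under all 4 LN libraries, and all other groups overlapped. Ccr6 (plus strand of chromosome 17, 8236043 to 8257141) differed by -1.39 ± 0.85 in KO tumor against LN (limma adjusted p = 0.515) and by -0.32 ± 0.88 in WT tumor against LN (adjusted p = 0.911). Against spleen it differed by -0.19 ± 0.85 in KO tumor (adjusted p = 0.950) and by 0.88 ± 0.88 in WT tumor (adjusted p = 0.713).

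Ccr9, the receptor of small-intestinal homing that plasmacytoid dendritic cells also carry, had the lowest group mean of the 9 in both tumor groups and in LN, though not the lowest value in each of their libraries. It reached 1 FPKM in 5 of the 14 libraries. It stood at 3.36, 0.264 and 0.667 FPKM in KO tumor 1 to 3, at 0.200, 4.23 and 0.658 FPKM in WT tumor 2 to 4, at 0.0672, 0.486, 0.183 and 0.751 FPKM in LN 1 to 4 and at 1.56, 0.0436, 2.31 and 3.23 FPKM in spleen 1 to 4. All groups overlapped, and the limma adjusted p lay between 0.644 and 0.930 in the 4 comparisons of tumor with lymphoid Tregs. The summed level of 5 plasmacytoid dendritic cell markers was 45.4 to 98.6 FPKM in KO tumor, 52.6 to 70.8 in WT tumor, 13.1 to 21.4 in LN and 53.4 to 71.3 in spleen. Siglech, a defining marker, stood at 0 to 0.382 FPKM in KO tumor, 0 to 5.93 in WT tumor, 0 to 10.9 in LN and 0.684 to 8.51 in spleen. It was highest in LN 4, where Ccr9 was 0.751 FPKM, the highest Ccr9 value of the LN libraries. Runx2, another marker of the list, stood at 15.5 to 39.8 FPKM in KO tumor, 8.01 to 23.2 in WT tumor, 0.478 to 3.60 in LN and 0.278 to 6.14 in spleen, and the part of these cells in the Ccr9 values was not tested. Ccr9 (plus strand of chromosome 9, 123678439 to 123784330) shares 1932 exon bases with a gene on the opposite strand and 269 with a predicted gene on its own. Smart-Seq2 libraries do not keep strand, so reads from these genes cannot be told apart.

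Cxcr5, the follicular homing receptor, ran the other way and was highest in spleen. It had 4.27, 13.4 and 0.0603 FPKM in KO tumor 1 to 3 and 3.05, 6.31 and 0.120 FPKM in WT tumor 2 to 4. It had 2.43, 10.8, 0.850 and 7.52 FPKM in LN 1 to 4 and 8.34, 15.3, 24.7 and 22.0 FPKM in spleen 1 to 4. All WT tumor libraries lay under all spleen libraries, and KO tumor 3 was under the limit of 3 reads. Cxcr5 (minus strand of chromosome 9, 44511787 to 44561877) differed by -2.43 ± 0.80 in WT tumor against spleen (limma adjusted p = 0.164) and by -2.0 ± 0.87 in KO tumor against spleen (adjusted p = 0.283), neither past the threshold. It differed by -1.79 ± 0.74 in LN against spleen (adjusted p = 0.407). Against LN the differences were -0.22 ± 0.87 in KO tumor (adjusted p = 0.958) and -0.64 ± 0.80 in WT tumor (adjusted p = 0.751).

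B cells express Cxcr5 too, and of the 7 B cell markers tested, 3 were called lower than in spleen by limma in each tumor group, beside 1.5% of all tested genes in KO tumor and 0.707% in WT tumor. The part of B cell RNA in the spleen levels of Cxcr5 and Ccr6 was not tested. Cxcr5 shares 110 exon bases with Bcl9l on the opposite strand, which averaged 9.48 FPKM in KO tumor, 8.62 in WT tumor, 7.13 in LN and 22.7 in spleen. Reads on those bases cannot be told apart between Cxcr5 and Bcl9l, and their part in the Cxcr5 levels was not tested. Il21 was 0 outside spleen 2, and the other 4 T follicular cell markers had no call in any of the 6 comparisons. The share of all tested genes called there in either direction was 0.28 to 3.71%.

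Set side by side, all receptor calls were in the direction of higher levels in tumor. Those in KO tumor set CD36 KO against WT Tregs as well as tumor against lymphoid tissue, which cannot be told apart. The calls of Ccr2 and Cxcr6 were all in KO tumor. In KO tumor against spleen 3 of the 9 were called higher (Ccr2, Cxcr4 and Cxcr6), beside 2.13% of the 9753 genes tested. In WT tumor against spleen 1 was called higher (Cxcr4), beside 1.2% of 9616 genes. In KO tumor against LN 2 were called higher (Ccr2 and Cxcr4), beside 2.2% of 9753 genes, and in WT tumor against LN 1 (Cxcr4), beside 1.89% of 9616 genes. None of the 9 was called lower, where the share of all genes was 1.5% in KO tumor and 0.707% in WT tumor against spleen, and 1.51% in KO tumor and 1.14% in WT tumor against LN. The groups did not overlap for 4 receptors with KO tumor above spleen (6.92% of genes) and 0 below (6.61%), and for 4 with WT tumor above spleen (5.73%) and 1 below (5.8%). Against LN they did not overlap for 4 with KO tumor above (8.77%) and 1 below (8.26%), and for 5 with WT tumor above (8.02%) and 0 below (8.95%). The median difference of the 9 was 1.13 in KO tumor against spleen, 1.01 in WT tumor against spleen, 1.75 in KO tumor against LN and 1.59 in WT tumor against LN. The medians of all tested genes were 0.02, -0.07, -0.01 and -0.12 in the same order. By group mean the order from high to low was KO tumor, WT tumor, LN, spleen for Ccr2 and Ccr8, and KO tumor, WT tumor, spleen, LN for Cxcr3 and Cxcr6. It was WT tumor, KO tumor, spleen, LN for Cxcr4, WT tumor, spleen, KO tumor, LN for Ccr4 and LN, WT tumor, spleen, KO tumor for Ccr6. Spleen led for Ccr9 (then WT tumor, KO tumor, LN) and for Cxcr5 (then KO tumor, LN, WT tumor). Of the neighbours in these orders, KO tumor and spleen for Cxcr4 were the pair that passed the test. Ccr2, Cxcr4 and Cxcr6 were the 3 receptors with all 6 tumor libraries above all 8 lymphoid ones, a pattern of 1.8% of the 10147 genes that reached 1 FPKM in at least 3 libraries.

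**Figure D2:**
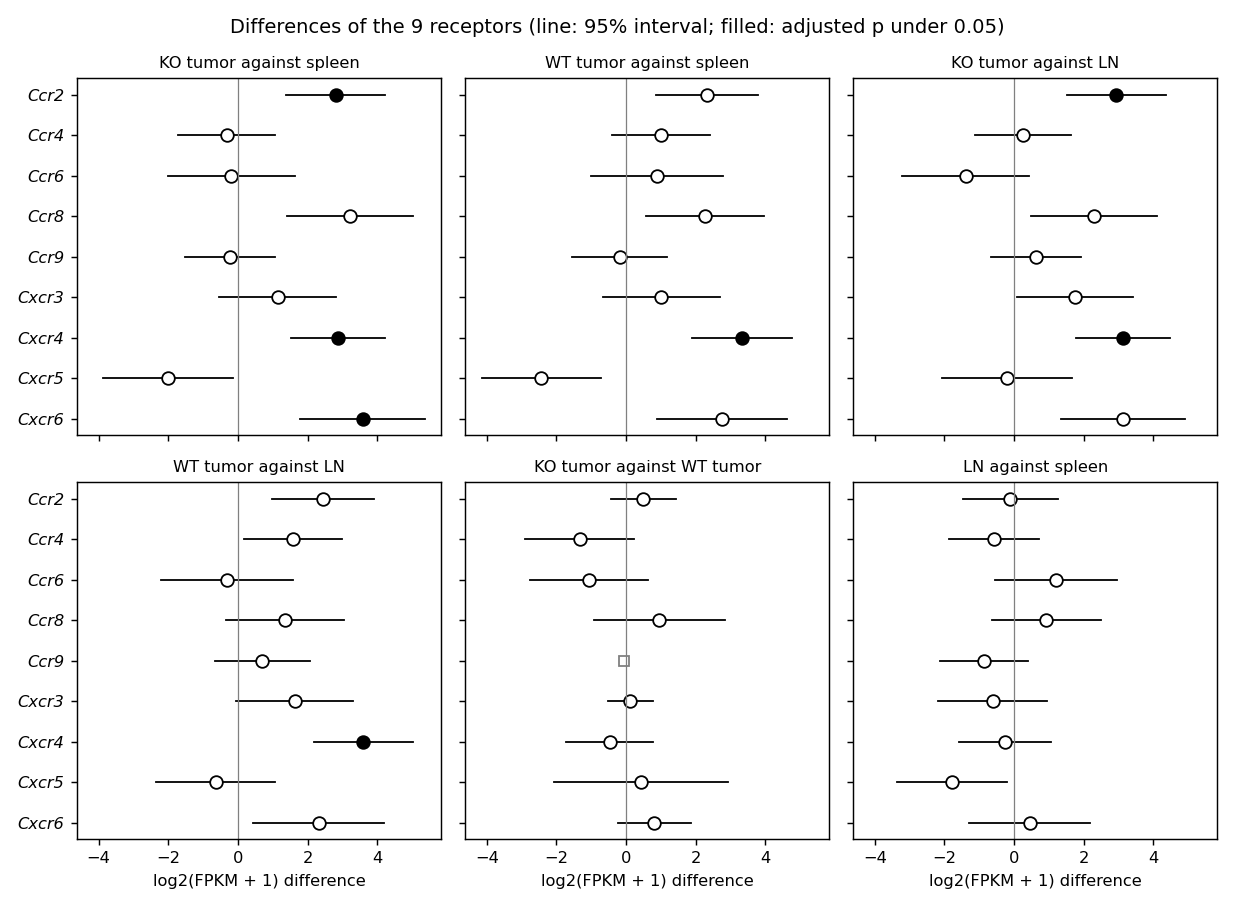
Differences in log2(FPKM + 1) of the 9 receptors in the 6 comparisons, each with its 95% interval, where filled points have a limma adjusted p under 0.05 and the open square is Ccr9, which was under the filter on low values in KO tumor against WT tumor. Filled points appear only in comparisons of tumor with lymphoid Tregs, for Cxcr4 in all 4, Ccr2 in 2 and Cxcr6 in 1.

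Between KO and WT tumor Tregs no receptor passed the threshold. None of the 8 receptors tested was called by limma in KO tumor against WT tumor, none had an unadjusted p under 0.05, and 0.28% of the 8210 genes tested were called in either direction (8.64% at an unadjusted p under 0.05). The 3 KO tumor libraries all lay above the 3 WT tumor libraries for Ccr2, with a difference of 0.49 (95% interval -0.44 to 1.42, adjusted p = 0.820). For Cxcr4 they all lay under them, with a difference of -0.46 (-1.71 to 0.78, adjusted p = 0.884). An exact two-sided permutation test gave p = 0.1 for each, the smallest that 3 against 3 libraries allow, and such separation was found for 7.54% of genes upward and 6.93% downward. The widest gaps between means were those of Ccr4, at -1.33 (-2.90 to 0.24, adjusted p = 0.672), and Ccr6, at -1.07 (-2.77 to 0.63, adjusted p = 0.774). Ccr8 differed by 0.95 (-0.93 to 2.83, adjusted p = 0.827). Cxcr6 differed by 0.81 (-0.24 to 1.87, adjusted p = 0.720) and Cxcr5 by 0.43 (-2.07 to 2.92, adjusted p = 0.960). Cxcr3 had the narrowest interval, -0.51 to 0.76 around 0.12 (adjusted p = 0.956). Ccr9, under the filter on low values, differed by -0.06 (exact permutation p = 1). Of the 6 macrophage or monocyte markers tested between these same libraries 2 were called, with Tyrobp higher in KO tumor by 5.08 ± 0.67 (adjusted p = 0.0158) and C1qb by 5.46 ± 0.65 (adjusted p = 0.00952), and their part in the receptor values was not tested. With no filter both were lost (0.226 for Tyrobp and 0.0827 for C1qb), and Tyrobp was also lost with a pseudocount of 0.1 FPKM (0.0550) and without KO tumor 1 (0.0643), 2 (0.150) or 3 (0.160).

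Between the lymphoid organs no receptor passed either. In LN against spleen 0 of the 9 were called by limma, beside 0.499% of 9616 genes (10.4% at an unadjusted p under 0.05), and 1 receptor, Cxcr5, had an unadjusted p under 0.05. Ccr6 differed by 1.20 (95% interval -0.55 to 2.95, adjusted p = 0.683), Ccr8 by 0.92 (-0.65 to 2.50, adjusted p = 0.739) and Ccr9 by -0.88 (-2.14 to 0.39, adjusted p = 0.683). The other 5 differed by -0.61 (Cxcr3) to 0.45 (Cxcr6), and every receptor overlapped between LN and spleen, where 3.87% of genes had all LN libraries above and 4% all below.

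Summed over the 9 receptors, all 6 tumor libraries held more receptor RNA than all 8 lymphoid libraries. The sum was 336 ± 25.8 FPKM in KO tumor (SD, n = 3), 295 ± 20.6 in WT tumor (n = 3), 98.4 ± 22.9 in LN (n = 4) and 163 ± 69.0 in spleen (n = 4). The lowest tumor library was WT tumor 3 at 282 FPKM, and the highest lymphoid library was spleen 2 at 243 FPKM. In the 3 KO tumor libraries Cxcr3 took 42.8 to 46.0% of that sum and Cxcr6 20.4 to 34.2%, while Ccr8 took 12.6, 1.68 and 3.27% and Ccr4 1.78, 2.22 and 7.08% in KO tumor 1 to 3. In WT tumor Cxcr3 took 37.8 to 53.6% and Cxcr6 9.88 to 25.9%. LN libraries had 30.7 to 71.4% for Cxcr3 and up to 23.2% for Ccr6. In spleen Cxcr3 took 79.6% in spleen 1 and 11.7% in spleen 4, where Cxcr5 led with 26.7%. Cxcr4, the most consistent call, made up 3.42 to 4.10% of the sum in KO tumor, 4.52 to 10.02% in WT tumor, 0.0407 to 3.28% in LN and 0.178 to 1.57% in spleen.

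**Figure D3:**
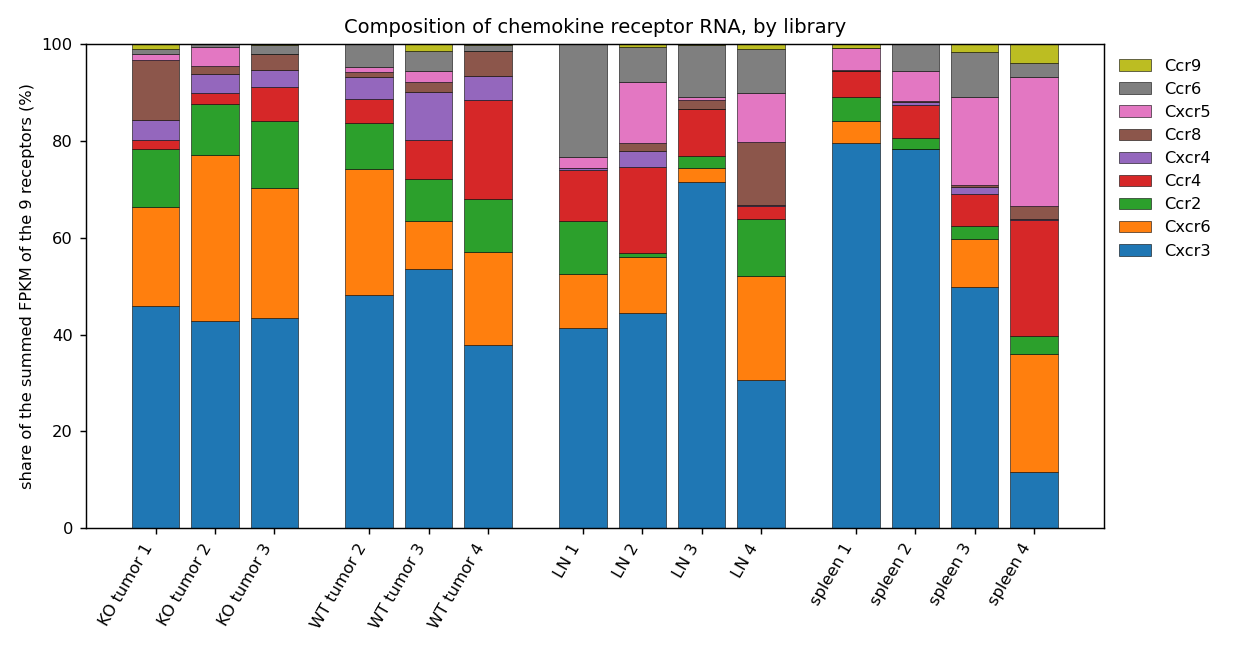
Share of each receptor in the summed FPKM of the 9 receptors, in percent, 1 bar per library from KO tumor to spleen. Cxcr3 is the largest segment in 13 of the 14 libraries and gives way to Cxcr5 in spleen 4.

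The ligands of the 9 receptors were mostly at or near 0 in these Tregs. Of 15 ligand genes 9 stayed under 1 FPKM in every library, and 5 of these (Ccl7, Ccl8, Ccl12, Ccl17 and Cxcl12) were listed at 0 in all 14. Of the 15, only 3 passed the filter and were tested in comparisons with KO tumor, and 2 in the other comparisons. Ccl1, a ligand of CCR8, was the ligand called in KO tumor, beside 2.13% of all tested genes called higher against spleen and 2.2% against LN. It stood at 96.2, 9.86 and 117 FPKM in KO tumor 1 to 3, at 28.0, 106 and 0 in WT tumor 2 to 4, at 0, 2.98, 0 and 0.445 in LN 1 to 4 and at 15.1, 0, 0 and 0 in spleen 1 to 4. It rose by 4.64 ± 1.09 against spleen (limma adjusted p = 0.0319), where spleen 1 lay among the KO tumor values, and by 5.01 ± 1.09 against LN (adjusted p = 0.0184). Against spleen the call was lost without KO tumor 1 (0.137) or 3 (0.138) or spleen 2 (0.0746), 3 (0.0733) or 4 (0.0738), and against LN without KO tumor 1 (0.0992) or 3 (0.0950) or LN 1 or 3 (0.0545 each). Both calls were also lost with no filter (0.104 and 0.0711), with a pseudocount of 0.1 FPKM (0.0613 and 0.0592) and in 1 fit of all 14 libraries (0.0960 and 0.0629). With KO tumor and spleen fitted alone the call against spleen was lost (0.0738). Cxcl10, a ligand of CXCR3, had 31.6, 17.5 and 46.3 FPKM in WT tumor 2 to 4, against 0.401, 6.53, 0.0306 and 0 FPKM in LN 1 to 4. It rose there by 4.07 ± 0.80 (adjusted p = 0.0117), beside 1.89% of all tested genes called higher. The call was lost without WT tumor 4 (0.0518). No tested ligand was called lower, and none of those tested was called in WT tumor against spleen, LN against spleen or KO tumor against WT tumor.

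Of a list of other chemokine receptors 12 were analysed. Only 6 of them passed the filter on low values (5 in KO tumor against WT tumor), and these gave no call in any of the 6 comparisons. The share of all tested genes called in either direction was 0.28 to 3.71%, so few calls among so few genes would be found anyway. Ccr7, which leads T cells into lymph nodes, had 21.9 to 93.1 FPKM in KO tumor, 37.5 to 104 in WT tumor, 55.2 to 146 in LN and 53.3 to 118 in spleen. Ccrl2, which binds a chemoattractant without signalling, had 5.16 to 17.4, 7.58 to 42.9, 0.692 to 5.09 and 0.814 to 3.15 FPKM in the same order. The chemokine receptor genes Cxcr1, Cxcr2, Ackr1 and Ackr2 were listed at 0 in all 14 libraries.

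Downstream of the receptors, most signalling genes gave no call. Of all tested genes in KO tumor, 2.13% were called higher against spleen and 2.2% against LN. Of 17 tested genes for G protein subunits and their effectors, 1 was called, Rap1b, a small GTPase that activates integrins. It rose in KO tumor by 1.12 ± 0.26 against spleen (limma adjusted p = 0.0322) and by 1.20 ± 0.26 against LN (adjusted p = 0.0195). Against spleen the call was lost without KO tumor 1 (0.142), 2 (0.0904) or 3 (0.0791) or spleen 3 (0.0635) or 4 (0.0587) and with no filter (0.0583), and against LN without KO tumor 1 (0.108), 2 (0.0702) or 3 (0.0514) or LN 1 (0.0528) or 2 (0.0613). In 1 fit of all 14 libraries both calls were lost (0.0745 against spleen and 0.0505 against LN). With KO tumor and spleen fitted alone that against spleen was lost (0.0769). Gnai2, the main Gi subunit of lymphocytes, stood at 238 to 267 FPKM in KO tumor, 196 to 267 in WT tumor, 169 to 200 in LN and 185 to 257 in spleen.

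The genes that end receptor signals moved in both directions. In KO tumor 2 of 11 tested were called higher and 1 lower against each lymphoid group, and in WT tumor 2 of 10 were called higher and 1 lower against spleen, and 1 higher and 1 lower against LN. Of all tested genes, 2.13% were called higher and 1.5% lower in KO tumor and 1.2% higher and 0.707% lower in WT tumor against spleen, and 2.2% higher and 1.51% lower in KO tumor and 1.89% higher and 1.14% lower in WT tumor against LN. Rgs2, a regulator that speeds the turning off of G proteins, stood at 356 to 547 FPKM in KO tumor, 300 to 371 in WT tumor, 6.87 to 18.3 in LN and 1.10 to 28.6 in spleen. Its rise was 5.77 ± 0.73 in KO tumor against spleen (limma adjusted p = 0.000873), 5.33 ± 0.74 in WT tumor against spleen (0.00273), 5.36 ± 0.73 in KO tumor against LN (0.00105) and 4.93 ± 0.74 in WT tumor against LN (0.00205). Rgs1, its relative that dampens chemokine responses in lymphocytes, rose against spleen in both tumor groups, by 2.70 ± 0.46 in KO tumor (0.00514) and 2.70 ± 0.51 in WT tumor (0.0155). Rgs10 fell in all 4 comparisons, by 1.33 ± 0.30 in KO tumor (0.0260) and 1.14 ± 0.18 in WT tumor (0.00521) against spleen, and by 1.63 ± 0.30 in KO tumor (0.00731) and 1.44 ± 0.18 in WT tumor (0.00044) against LN. Rgs16 rose in KO tumor against LN by 2.41 ± 0.59 (0.0356). The Rgs2 calls held in all alternatives, while that of Rgs1 in WT tumor was lost without WT tumor 3 (0.0653) or 4 (0.0633) and with WT tumor and spleen fitted alone (0.0626). The call of Rgs10 in WT tumor against spleen was lost in 1 fit of all 14 libraries (0.0524). The call of Rgs10 in KO tumor against spleen was lost with no filter (0.0934), with those groups fitted alone (0.0814) and without KO tumor 2 (0.0505) or 3 (0.0514) or spleen 1 (0.0565) or 3 (0.0623). That of Rgs16 was lost without any 1 of the 7 KO tumor and LN libraries (0.0516 to 0.141) and with a pseudocount of 0.1 FPKM (0.0583). The remaining tested genes of the list, receptor kinases and arrestins among them, had no call.

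Of 15 transcription factors tested that are known to act on receptor genes, 3 were called higher in each tumor group against spleen, 2 in KO tumor against LN and 4 in WT tumor against LN, and none lower. Of all tested genes 2.13% in KO tumor and 1.2% in WT tumor were called higher against spleen, and 2.2% and 1.89% against LN. Rora and Hif1a rose in all 4 of these comparisons, Rora by 1.92 to 2.67 (limma adjusted p of 0.0015 to 0.0344) and Hif1a by 1.64 to 2.0 (0.00659 to 0.0308). Rora, a nuclear receptor, had 65.0 to 68.7 FPKM in KO tumor, 43.1 to 62.6 in WT tumor, 7.36 to 12.1 in LN and 10.9 to 18.7 in spleen. Hif1a, the hypoxia factor, had 117 to 165, 138 to 159, 24.0 to 48.8 and 30.3 to 69.7 FPKM in the same order. Klf2, a Kruppel-like factor that maintains recirculation receptors, was the member of this list that differed between the genotypes. It stood at 539, 423 and 353 FPKM in KO tumor and at 1213, 971 and 1056 FPKM in WT tumor, a fall by 1.31 ± 0.21 (limma adjusted p = 0.0397). This call was lost with no filter (0.259), with a pseudocount of 0.1 FPKM (0.0550) and without KO tumor 2 (0.202) or 3 (0.212) or WT tumor 2 (0.146), 3 (0.0871) or 4 (0.0995). Klf2 rose in WT tumor against spleen by 1.64 ± 0.26 (0.00527) and against LN by 1.70 ± 0.26 (0.00205). The calls of Rora and Hif1a against LN held in all alternatives. Against spleen in WT tumor they were lost for Rora without WT tumor 2 (0.0989), 3 (0.107) or 4 (0.0633) or spleen 1 (0.0680), 3 (0.0757) or 4 (0.0615), and for Hif1a without WT tumor 2 (0.0903), 3 (0.0819) or 4 (0.0960) or spleen 1 (0.0702) or 3 (0.0748). With WT tumor and spleen fitted alone both were lost (0.0969 for Rora and 0.0751 for Hif1a). With no filter so was the call of Hif1a (0.0596). In KO tumor against spleen the call of Hif1a was lost without KO tumor 1 (0.10) or 3 (0.0912). Gata3 rose in WT tumor against LN by 1.73 ± 0.35 (0.0144), a call lost without WT tumor 3 (0.0586) or 4 (0.0533). Stat3 rose in KO tumor against spleen by 2.32 ± 0.46 (0.0129), a call lost without KO tumor 1 (0.0731) or 3 (0.0678) and with those groups fitted alone (0.0501). Tbx21 (T-bet), which is known to induce Cxcr3, was not called in any comparison, at 12.3 to 22.6 FPKM in KO tumor, 7.63 to 14.9 in WT tumor, 0.241 to 11.1 in LN and 0.792 to 15.6 in spleen.

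Of 16 other homing genes, 1 was called higher in KO tumor against spleen (2.13% of all tested genes), 1 in KO tumor against LN (2.2%) and 2 in WT tumor against spleen (1.2%), and none lower. Cd69, whose product holds T cells in tissue, rose in KO tumor against spleen by 3.36 ± 0.64 (limma adjusted p = 0.0105) and against LN by 2.89 ± 0.64 (0.0201). In WT tumor it rose against spleen by 2.86 ± 0.65 (0.0372). Selplg, the ligand of selectins on vessel walls, rose in WT tumor against spleen by 2.39 ± 0.53 (0.0350). In KO tumor the Cd69 calls were lost without KO tumor 2 (0.0548) or 3 (0.0514) against spleen, and without KO tumor 1 (0.0523), 2 (0.105) or 3 (0.0805) or LN 2 (0.0510) or 3 (0.0617) against LN. With no filter the Cd69 call against LN was lost as well (0.0674). In WT tumor against spleen the call of Cd69 was lost without WT tumor 2 (0.10), 3 (0.0896) or 4 (0.116) or spleen 2 (0.0666), and that of Selplg without WT tumor 2 (0.0666), 3 (0.118) or 4 (0.0961) or spleen 2 (0.0685) or 4 (0.0740). Both were also lost there with no filter (0.105 for Cd69 and 0.0659 for Selplg) and with WT tumor and spleen fitted alone (0.102 and 0.126). With a pseudocount of 0.1 FPKM that of Cd69 was lost too (0.0564). S1pr1, the receptor by which T cells leave lymphoid organs, had no call.

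By position, 6 of the 9 receptors lie on chromosome 9, and 3 of them in 1 cluster of 435 kb that runs from Ccr9 over Cxcr6 to Ccr2 (123678439 to 124113557). The cluster holds 10 genes of the files, of which 8 averaged at least 1 FPKM in some group. Cxcr6 and Ccr2 were called in KO tumor against spleen, while Ccr9 at the other end had a difference of -0.24 ± 0.60 there. Between and beside them none of Lztfl1, Fyco1, Xcr1, Ccr1 and Ccr3 was called in the comparisons of tumor with lymphoid Tregs in which it was tested. Ccr3, the eosinophil receptor next to Ccr2, differed by -0.0027 ± 0.72 in KO tumor and -1.58 ± 0.70 in WT tumor against spleen.

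**Figure D4:**
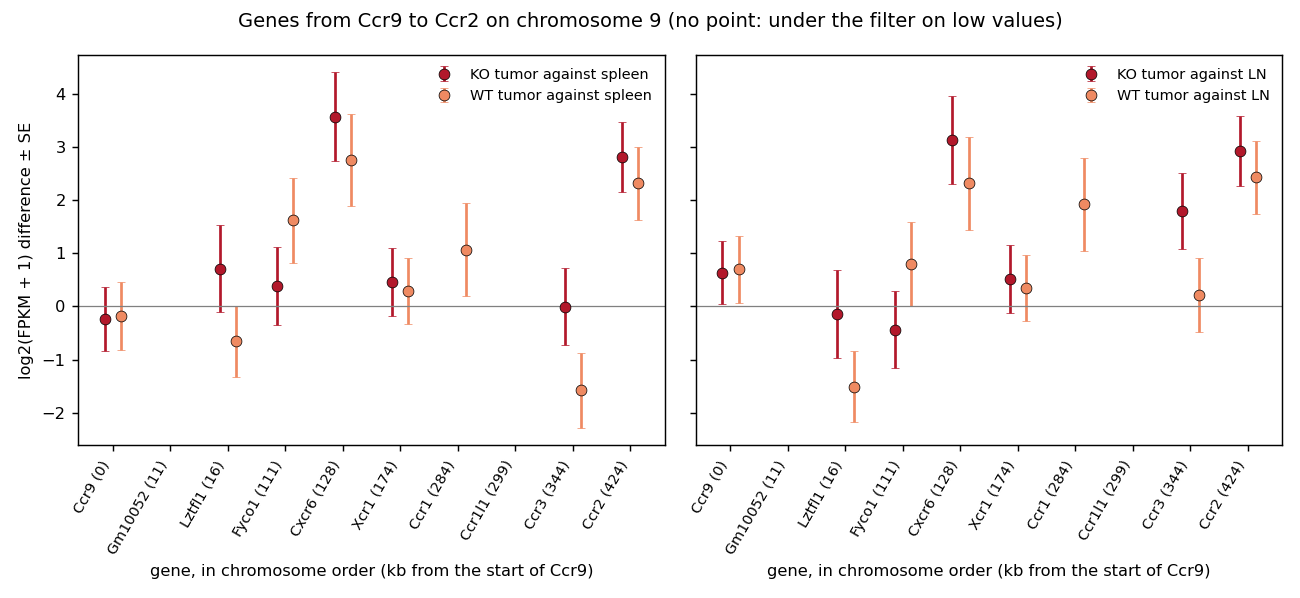
Differences in log2(FPKM + 1) with SE along the 10 genes from Ccr9 to Ccr2, in chromosome order with the distance in kb from the start of Ccr9, for KO and WT tumor against spleen (left) and against LN (right). Genes under the filter on low values have no point, which are Gm10052 and Ccr1l1 throughout and Ccr1 in KO tumor. Cxcr6 and Ccr2 have the highest points in each panel for both genotypes, while Ccr9 lies near 0 against spleen, at -0.24 ± 0.60 in KO tumor and -0.18 ± 0.63 in WT tumor.

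Ccr2, Cxcr4 and Cxcr6 were the receptors that separated tumor from lymphoid libraries, and that separation alone raises their correlations with each other. Whether they vary together within a group was not tested. Over the 14 libraries, Pearson correlations of log2(FPKM + 1) were 0.74 between Ccr2 and Cxcr6, 0.73 between Ccr2 and Cxcr4, and 0.69 between Cxcr4 and Cxcr6. The highest correlation of Ccr8 was 0.70, with Cxcr6, while Cxcr5 had negative values with every receptor other than Ccr9. These coefficients describe libraries that fall into tumor and lymphoid groups, so they include the group differences.

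For each receptor the genes of most similar pattern were taken from 5404 genes that averaged at least 5 FPKM (5405 for Ccr9), ranked by the same correlation over 14 libraries. The highest of so many coefficients are high by selection, and how high chance alone would take them was not tested. Cxcr4 was most like Zfp36 (0.97), whose product promotes mRNA decay, and Gpr183 (0.94), a receptor for oxysterols that guides lymphocytes. Ccr2 was most like Dennd4a (0.92) and Nkg7 (0.92), a gene of cytotoxic granules, and Ccr8 like Dennd4a (0.84) and B2m (0.83), the light chain of MHC class I. Summed over 6 markers, CD8 T or NK cell genes stood at 16.6 to 51.0 FPKM in KO tumor. They stood at 25.0 to 63.8 FPKM in WT tumor, 0.110 to 5.54 in LN and 7.78 to 66.8 in spleen. The part of such cells in the receptor levels was not tested. Cxcr6 was most like Pgk1 (0.93), a glycolytic enzyme gene, and Pgk1-rs7 (0.91), a copy of Pgk1 with which reads can be shared. Cxcr3 was most like Tuba1c (0.81) and the interferon-induced gene Ifi205 (0.81). Ccr4 was most like Txnrd1 (0.80) and Hnrnpa0 (0.79), and Ccr6 like Shmt1 (0.83) and Mapk11 (0.80). Cxcr5 was most like Polr2f (0.88) and B4galnt1 (0.82), and Ccr9 like Rundc1 (0.88) and Gars (0.88).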

How the data were processed

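RNA of sorted Foxp3-YFP+ Tregs was sequenced after Smart-Seq2 preparation of low-input total RNA, per the labels' protocols. The deposited values are FPKM per gene and library. Per the submitters' processing notes, the authors used DESeq2, Cuffdiff, Cufflinks 2.2.1, Bowtie2 2.2.9, TopHat2 2.1.1 and Trimmomatic with the mm10 (GRCm38) genome, and none of these was rerun. Gene positions came from GENCODE M21, and 59 of 22255 identifiers had no match there. The promoter table held 8 of the 9 receptors. Depth was estimated from the steps between low values of genes of at least 0.8 kb, where 93.0 to 96.0% of 241 to 347 values per library were whole reads within 0.1, up to 20 reads. Any multiple of such a depth gives whole reads as well, so each depth is the smallest that does (54.5 to 64.2% of the whole values were odd numbers of reads), and a deeper library would have lower limits. The limits of 3 reads cover counting error only.

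Robust limma-trend (limma 3.58.1, R 4.3.3) was run on log2(FPKM + 1), a scale that understates differences of low genes. Genes with at least 3 libraries of the fit at 1 FPKM were tested, with Benjamini-Hochberg adjustment over all of them and a threshold of 0.05. WT tumor, LN and spleen (11 libraries) shared a fit, as did KO tumor, LN and spleen (11), while KO and WT tumor (6) were fitted alone. A receptor under the filter had an exact two-sided permutation test. The receptors, gene lists and tests were chosen with earlier results of these data known. The named genes are the 9 receptors, up to 4 called members of each list, 2 genes per receptor with the most similar pattern, and Cd36 and Foxp3. Other genes given by level (Ccr7, Ccrl2, Gnai2, Tbx21, Csf1r, Siglech and the cluster neighbours among them) were chosen after their values were seen. Alternatives were a pseudocount of 0.1, no filter, median-ratio scaling, other sets of libraries, leaving out each library and the replicate number as a block. Python 3.11.15, numpy 2.4.6, pandas 2.3.3 and matplotlib 3.10.9 did the rest.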

Additional observations from a re-analysis of the deposited data

Results flagged for a closer look

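Of the 18 combinations of a receptor and a group of 4 libraries, 1 held a library far from the others. Cxcr4 stood at 2.82 FPKM in LN 2, against 0.442, 0.0515 and 0.0604 FPKM in LN 1, 3 and 4, and its gap to the nearest library took 0.859 of the whole range, past Dixon's 95% critical value for 4 libraries. Chance alone gives about 1 such case in 20. LN 2 still lay under the lowest tumor library, KO tumor 3 at 10.5 FPKM.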

How the results depend on the processing

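Of 688 recomputed differences of single receptors, 617 kept their direction and side of the threshold, 35 lost a call, 6 gained one and 30 changed sign. Of the sign changes 27 came from leaving out 1 library. The causes of these changes were not tested. The lost and gained calls of Cxcr4, Ccr2, Cxcr6, Ccr8 and Cxcr3 stand beside their values above, other than those under the replicate block.

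No called difference of a receptor changed sign. For 16 other named genes, recomputed after their values were seen, 18 of 41 called differences kept their call in all alternatives and none changed sign (129 of 526 recomputed values lost the call). Losses under the replicate block are not listed beside these genes. When a single library was left out, the difference ran from -0.81 to 0.25 for Ccr9 in WT tumor against spleen, from -0.67 to 0.23 for Ccr6 and from -1.24 to 0.12 for Cxcr5 in WT tumor against LN. In LN against spleen it ran from -0.51 to 0.44 for Ccr2 and from -0.47 to 0.94 for Cxcr6. In KO tumor against WT tumor it ran from -0.59 to 0.57 for Ccr9, from -0.042 to 0.21 for Cxcr3 and from -0.44 to 1.44 for Cxcr5. In KO tumor against spleen it ran from -0.83 to 0.011 for Ccr4, from -0.92 to 0.30 for Ccr6 and from -0.77 to 0.12 for Ccr9. In KO tumor against LN it ran from -0.29 to 0.59 for Ccr4 and from -1.09 to 0.79 for Cxcr5. A pseudocount of 0.1 turned the difference of Ccr6 in KO tumor against spleen to 0.19, from -0.19.

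The count of called genes behind the background shares moved more. Leaving out 1 library gave 82 to 173 calls for WT tumor against spleen (183 with all, fewest without WT tumor 2), 183 to 268 for WT tumor against LN (292, fewest without WT tumor 3) and 13 to 35 for LN against spleen (48, fewest without LN 1). It gave 9 to 15 for KO tumor against WT tumor (23, fewest without KO tumor 2 or 3), 147 to 299 for KO tumor against spleen (354, fewest without KO tumor 1) and 175 to 277 for KO tumor against LN (362, fewest without KO tumor 1). Without the filter, 112 genes were called for WT tumor against spleen, 16 for LN against spleen and 0 by limma for KO tumor against WT tumor (769 at an unadjusted p under 0.05), with 15643, 15643 and 15208 genes tested. Fits of only the groups compared called 87 genes for WT tumor against spleen and 185 for KO tumor against spleen. One fit of all 14 libraries called 60 genes for KO tumor against WT tumor.

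Libraries with the same replicate number did not deviate together (correlations of -0.03 to 0.03 in 18 pairs), so the numbers are not taken to pair samples. With the replicate number as a block, 89 genes were called for WT tumor against spleen, 186 for WT tumor against LN, 20 for LN against spleen and 6 for KO tumor against WT tumor. Under that block the adjusted p of Cxcr4 was 0.0678 in WT tumor and 0.0618 in KO tumor against spleen, that of Ccr2 in KO tumor against spleen was 0.0537 and that of Ccr8 was 0.0423. The KO tumor against WT tumor differences of Cxcr3 and Cxcr5 were -0.089 and -0.48 under the block, against 0.12 and 0.43 without it.

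With FPKM only, counts behind each value are estimates, and groups hold 3 or 4 libraries. The widest 95% interval in KO tumor against WT tumor was that of Cxcr5, at -2.07 to 2.92.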
